A study of Drosophila melanogaster with 34 samples.

Results

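The 6 genes *Sodh-1*, *Sodh-2*, *CG6910*, *CG3534*, *CG11594* and *CG32444* encode enzymes, or relatives of enzymes, that act on sugars, sugar alcohols or inositol, and they were followed across 6 strains of *D. melanogaster* kept with or without copper. They are 6 of the 16495 genes in the count table, and all 6 had enough reads for every comparison below. They were chosen by measured values, the level in copper libraries relative to control libraries, which was higher in both tolerant and sensitive strains for several of them. This difference is therefore given as a description, without a test. The levels in control libraries, the differences among strains and the difference in copper response between the classes were tested over all genes. They were not themselves the ground for the choice. The responses of both classes were used, however, and a choice for a rise in both can favour a small difference between them.

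In the polyol pathway, an aldose reductase converts glucose to sorbitol, and sorbitol dehydrogenase then oxidizes sorbitol to fructose. Inositol is broken down by inositol oxygenase to glucuronate, from which, in mammals, further steps lead by way of xylitol to xylulose. A kinase phosphorylates xylulose, and the product enters the pentose phosphate pathway, a source of NADPH and of sugar phosphates.

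Each library was made from the whole bodies of 20 mated females. The tolerant strains were MUN-008, MUN-020 and GIM-012, and the sensitive ones JUT-008, COR-018 and AKA-018. All are European strains inbred for 20 generations, and females were 3 to 7 days old according to the labels. Copper groups received 20 mM CuSO4 in 5% sucrose for 24 h and control groups the same sucrose without it, with 3 libraries per strain and treatment but 2 control libraries in AKA-018 and MUN-020. A class therefore stands for 3 inbred genotypes, and by the study's methods RNA of JUT-008 and COR-018 came from surviving flies only.

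The libraries hold between 22796637 and 42567920 counted reads. *MtnB*, a metallothionein that binds copper, had 129 to 905 CPM (normalized counts scaled to a common library size) in the 18 copper libraries, against 1.33 to 18.0 CPM in the 16 control libraries, so no library went against its treatment label. Of 39 listed male accessory gland transcripts, 13 are in the table. Their summed level was at most 0.157 CPM in tolerant copper and 0.130 CPM in tolerant control libraries, whereas in sensitive strains it reached 43.3 CPM in copper and 155 CPM in control libraries. It was 68.1 and 89.3 CPM in the AKA-018 control libraries, and at most 0.143 CPM in the AKA-018 copper libraries. The summed level of 13 midgut markers in sensitive strains was 1093 to 5062 CPM with copper (median 1715) and 1634 to 10780 CPM in controls (median 3776), and that of 8 fat body markers was 5975 to 13780 CPM with copper and 8059 to 20170 CPM in controls. In tolerant strains the midgut sum was 3820 to 7213 CPM with copper and 3852 to 9154 CPM in controls, and the fat body sum was 11150 to 25540 CPM with copper and 6350 to 32010 CPM in controls. Fits without the libraries over 10 CPM of male accessory gland transcripts are given below, but for copper in sensitive strains they left 5 of 17 libraries. Beyond these fits, the part of these transcripts and tissues in the results was not tested. In whole bodies a change in the number of cells and a change in RNA per cell cannot be told apart.

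Positions are those of the dm6 assembly. *Sodh-1* (FBgn0024289) lies on chromosome 3R between 7052335 and 7054541 on the plus strand and overlaps no other annotated gene. *Sodh-2* (FBgn0022359) lies on 3R between 10876384 and 10878257, plus strand, and shares 765 exon bases with the antisense *asRNA:CR45195* and 54 with *CG14695*. *CG6910* (FBgn0036262), now named *Miox*, lies on 3L between 12184984 and 12187860, plus strand, with a reference transposable element fragment, FBti0063216, of 75 bases within its exons. *CG3534* (FBgn0038463) lies on 3R between 16996446 and 16999449, plus strand, and shares 66 exon bases with *Sf3a1* on the opposite strand. *CG11594* (FBgn0035484) lies on 3L between 4022700 and 4026011, minus strand, and shares 615 exon bases with *Mul1* on the opposite strand. *CG32444* (FBgn0043783) lies on 3L between 21636947 and 21639060, plus strand, and shares 366 exon bases with the antisense *asRNA:CR45955*. In the reference assembly it has the transposable element FBti0020195 in an intron, but the authors report this insertion absent from every strain followed here. Since the authors counted reads by strand, reads of the opposite-strand partners were not counted for these genes unless a read was assigned to the wrong strand.

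Levels of different genes were compared per kilobase of exon sequence. *CG32444* was the most abundant, at 577 ± 259 CPM per kilobase in copper libraries and 190.3 ± 112 in control libraries (SD, n = 18 and 16), followed by *CG6910* at 474 ± 182 and 155 ± 51.4. *Sodh-1* averaged 259 ± 96.6 CPM per kilobase with copper and 66.5 ± 23.1 in controls. The other 3 were lower, with *CG11594* at 55.8 ± 17 and 27.9 ± 10.3, *CG3534* at 37.9 ± 4.54 and 22.6 ± 2.08, and *Sodh-2* at 29.9 ± 12.2 and 16.7 ± 4.93 CPM per kilobase in copper and control libraries. SDs here span strains as well as replicates, and they were widest for *CG32444* and narrowest, in proportion, for *CG3534*.

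**Figure D1:**
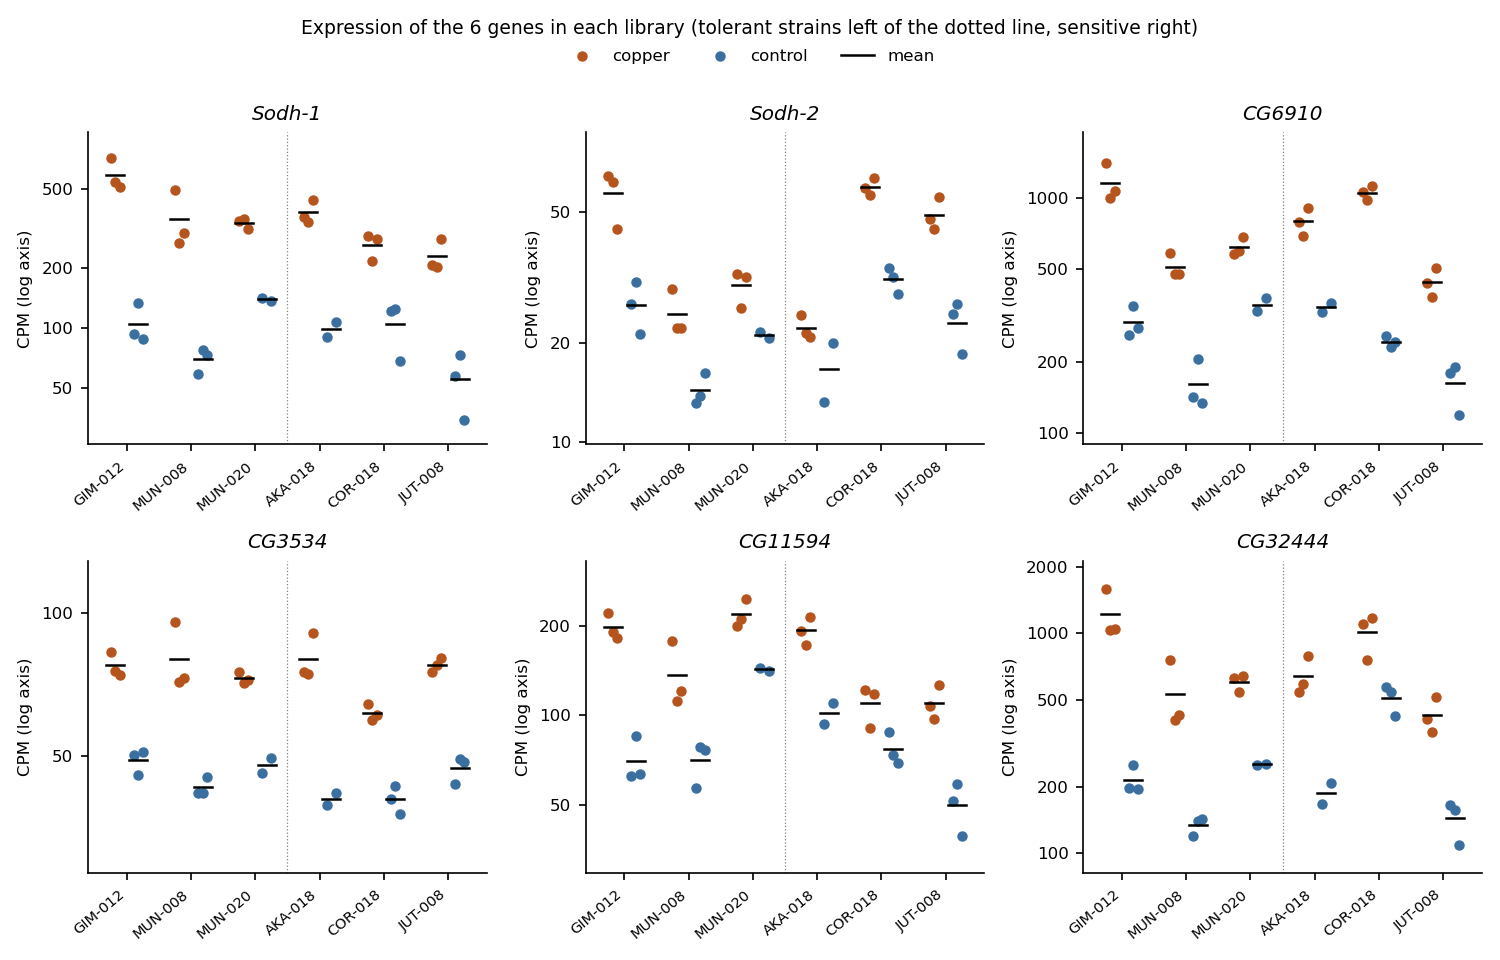
Each panel plots 1 gene, with CPM on a log axis against the 6 strains, copper libraries (brown) left of control libraries (blue), each point a library and each black line the mean of a strain and treatment. In all 36 pairs of gene and strain every copper library lies above every control library of that strain, and the control libraries of COR-018 stand high for *CG32444*, at 421 to 572 CPM.

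Within each strain, the copper libraries of all 6 genes lay above the control libraries, in 36 of 36 pairs of gene and strain, whereas 0.384% of 12511 genes were ordered in this way in all 6 strains. The choice of the genes used this contrast. When the strains of a class were pooled, copper and control libraries were apart for *Sodh-1*, *CG6910*, *CG3534* and *CG32444* in tolerant strains (0.32% of genes) and for the same genes except *CG32444* in sensitive strains (0.264% of genes). The libraries of *Sodh-2* and *CG11594* overlapped in both classes, because their level also differed among the strains.

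*Sodh-1* and *Sodh-2* encode sorbitol dehydrogenases, which oxidize sorbitol to fructose. *Sodh-1* had 268 to 712 CPM (median 354) in the 9 copper libraries of tolerant strains, against 58.3 to 141 CPM (median 90.6) in their 8 control libraries. In sensitive strains it had 202 to 440.3 CPM (median 281) with copper, against 34.5 to 124 CPM (median 81.5) in controls. The groups did not overlap in either class, and tolerant strains had a log2 fold change of 2.08 ± 0.18 (SE) and sensitive strains one of 1.77 ± 0.18, the 16th largest of 11602 and the 69th largest of 12308 genes. In GIM-012 the gene had 512, 541 and 712 CPM with copper, against 88.0, 93.3 and 133 CPM in controls. In MUN-020 it had 314, 346 and 354 CPM with copper, against 136 and 141 CPM in controls. GIM-012 thus showed the largest difference of the 6 strains, 5.61-fold, and MUN-020, whose control libraries were the highest of all, the smallest, 2.43-fold.

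*Sodh-2*, the second sorbitol dehydrogenase gene, changed less. It had 22.2 to 64.3 CPM (median 31.7) in tolerant copper libraries, against 13.2 to 30.6 CPM (median 21.0) in tolerant control libraries. In sensitive strains it had 20.8 to 63.0 CPM (median 47.4) with copper, against 13.2 to 33.8 CPM (median 25.3) in controls. These ranges overlap in both classes, because COR-018 and GIM-012 were high and AKA-018 and MUN-008 low under both treatments, and the log2 fold changes were 0.81 ± 0.11 in tolerant and 0.84 ± 0.11 in sensitive strains. The smallest difference was in AKA-018, with 20.8, 21.5 and 24.3 CPM with copper against 13.2 and 20.0 CPM in controls, 1.34-fold. COR-018 had 56.1, 59.0 and 63.0 CPM with copper, against 28.2, 31.8 and 33.8 CPM in controls.

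The balance of the 2 transcripts per kilobase shifted towards *Sodh-1* with copper by different amounts. In AKA-018 the ratio of *Sodh-1* to *Sodh-2* was 16.8 ± 3.26 with copper (SD, n = 3), against 5.89 ± 0.978 in controls (n = 2). Both AKA-018 control libraries held male accessory gland transcripts (68.1 and 89.3 CPM), and the AKA-018 copper libraries at most 0.143 CPM. The ratio was 13.8 ± 2.43 with copper and 4.69 ± 0.614 in controls of MUN-008, 11.1 ± 2.02 and 6.38 ± 0.0339 in MUN-020, and 10.2 ± 1.43 and 3.90 ± 0.401 in GIM-012. JUT-008 had a ratio of 4.54 ± 0.350 with copper and 2.27 ± 0.452 in controls. In COR-018 it was 4.27 ± 0.522 with copper and 3.21 ± 0.759 in controls, and there the highest control library, at 3.78, exceeded the lowest copper library, at 3.73. Copper and control libraries did not overlap in the other 5 strains.

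**Figure D2:**
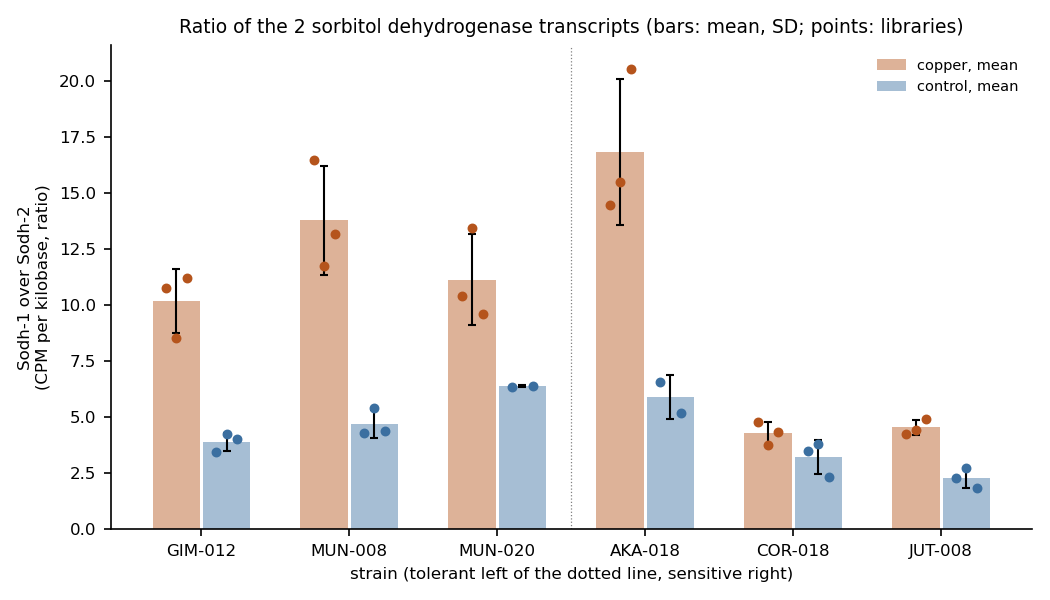
The ratio of *Sodh-1* to *Sodh-2* (CPM per kilobase, linear axis from 0) is plotted for each strain with copper (brown, left) and without it (blue, right), bars giving the mean, error bars the SD and points the libraries. The ratio with copper is 4.27 in COR-018 and 4.54 in JUT-008, and between 10.2 and 16.8 in the other 4 strains.

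*CG6910*, the inositol oxygenase that opens the ring of myo-inositol, had 473 to 1409 CPM (median 596) in tolerant copper libraries, against 134 to 373 CPM (median 271) in tolerant control libraries. In sensitive strains it had 379 to 1122 CPM (median 789) with copper, against 119 to 357 CPM (median 238) in controls. The libraries did not overlap in either class, and the log2 fold changes were 1.51 ± 0.15 in tolerant and 1.61 ± 0.13 in sensitive strains. COR-018 showed the largest difference, with 980, 1058 and 1122 CPM with copper, against 232, 244 and 257 CPM in controls, 4.31-fold. MUN-020 showed the smallest, with 578, 596 and 682 CPM with copper, against 329 and 373 CPM in controls, 1.76-fold. MUN-020 and AKA-018 had the highest control means for this gene, and neither was among the 2 highest means with copper. GIM-012, which had the highest mean with copper, had control libraries that overlapped those of both strains.

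The next 2 genes encode sugar kinases of the FGGY family. *CG3534*, related to the human xylulose kinase, had 71.3 to 95.7 CPM (median 74.2) in tolerant copper libraries, against 41.7 to 50.9 CPM (median 45.8) in tolerant control libraries. In sensitive strains it had 59.5 to 90.8 CPM (median 75.1) with copper, against 37.7 to 49.2 CPM (median 42.4) in controls. Copper and control libraries were apart in every strain and in both classes although the log2 fold changes, 0.72 ± 0.07 in tolerant and 0.76 ± 0.06 in sensitive strains, were the lowest of the 6, because replicates differed little (pooled SD of log2 CPM within strain and treatment 0.11, against 0.21 to 0.33 for the other genes). The differences in the strains ran between 1.52-fold in COR-018 and 1.98-fold in AKA-018. In AKA-018 there were 74.5, 75.3 and 90.8 CPM with copper, against 39.3 and 41.6 CPM in controls.

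*CG11594*, whose sugar substrate is less certain, had 112 to 246 CPM (median 191) in tolerant copper libraries, against 57.0 to 145 CPM (median 77.3) in tolerant control libraries. In sensitive strains it had 90.8 to 215 CPM (median 121) with copper, against 39.3 to 110.5 CPM (median 71.3) in controls. The overlap came from MUN-020, whose control libraries, at 141.5 and 144.7 CPM, lay above 2 of the 3 copper libraries of MUN-008, and from AKA-018, whose control libraries lay at 93.5 and 110.5 CPM. The log2 fold changes were 1.04 ± 0.13 in tolerant and 0.86 ± 0.11 in sensitive strains. GIM-012 had 182, 191 and 222 CPM with copper, against 62.4, 63.3 and 85.1 CPM in controls, 2.82-fold. COR-018 had 90.8, 118 and 121 CPM with copper, against 69.2, 73.5 and 87.9 CPM in controls, 1.43-fold, and its lowest copper library lay just above its highest control library.

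*CG32444* encodes an aldose 1-epimerase, an enzyme that interconverts the ring forms of sugars such as galactose. It had 405 to 1587 CPM (median 643) in tolerant copper libraries, against 119.9 to 254 CPM (median 197) in tolerant control libraries. In sensitive strains it had 357 to 1179 CPM (median 587) with copper, against 109 to 572 CPM (median 188) in controls. Tolerant strains had a log2 fold change of 1.94 ± 0.18 and sensitive strains one of 1.41 ± 0.15. GIM-012 had 1033, 1045 and 1587 CPM with copper, against 195.5, 198 and 251 CPM in controls, and this 5.69-fold difference was the largest of the 36. COR-018 had 755, 1099 and 1179 CPM with copper, against 421, 539.5 and 572 CPM in controls, 1.98-fold. The control libraries of COR-018 overlapped the copper libraries of AKA-018, MUN-008, MUN-020 and JUT-008, and this strain alone made the 2 treatments overlap in the sensitive class.

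Fitted by strain, all 36 differences were above 0 and 33 exceeded 1.5-fold. Of 12511 genes, 3.49% were above 0 in all 6 strains. *Sodh-1*, *CG6910*, *CG3534* and *CG32444* exceeded it in all 6 strains, as did 0.248% of genes. The exceptions were *Sodh-2* in AKA-018 and MUN-020 and *CG11594* in COR-018. GIM-012 showed the largest difference for 4 of the 6 genes. COR-018 showed the smallest for 3, *CG3534*, *CG11594* and *CG32444*, and the largest for *CG6910*. The mean log2 fold change of the 6 genes was 1.71 for GIM-012, 1.44 for MUN-008 and 0.85 for MUN-020, against 1.34 for JUT-008, 1.21 for AKA-018 and 1.08 for COR-018, so that tolerant strains took the highest and the lowest place.

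**Figure D3:**
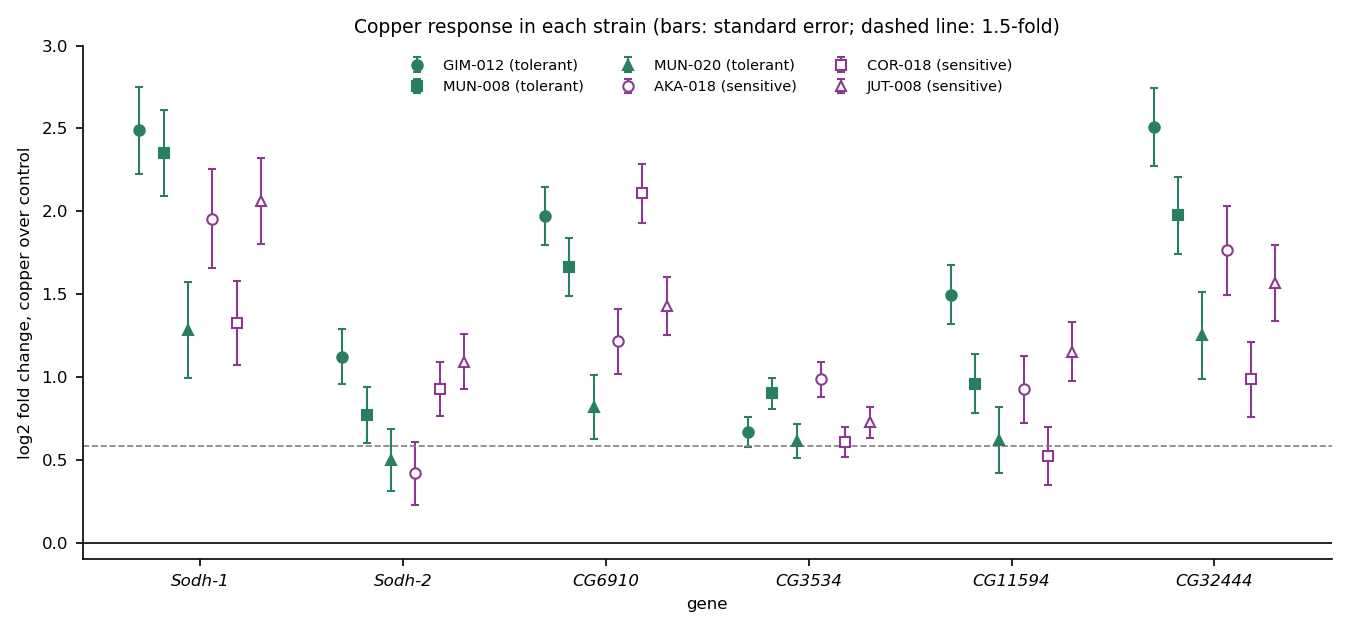
For each gene the log2 fold change of copper over control is plotted for the 6 strains, tolerant strains filled and left, sensitive strains open and right, with bars for the standard error and a dashed line at 1.5-fold. All 36 values lie above 0, GIM-012 lies highest for 4 genes, and COR-018 lies highest for *CG6910* but lowest for *CG3534*, *CG11594* and *CG32444*.

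The copper response was then compared among the strains, in a model of all 34 libraries with strain, treatment and their interaction, in which 30.1% of 12511 genes differed at an adjusted *p*-value below 0.05 (edgeR quasi-likelihood test with Benjamini-Hochberg adjustment, as for all tests below). Of the 6 genes, 4 differed. The strain log2 fold changes of *CG6910* spanned 1.29 (adjusted *p* = 0.00351) and those of *CG32444* 1.52 (adjusted *p* = 0.0094). Both remained below the threshold when any single library was left out, with adjusted *p*-values up to 0.0139 for *CG6910* and 0.0343 for *CG32444*. *CG11594* spanned 0.98 (adjusted *p* = 0.0325) and *Sodh-1* 1.21 (adjusted *p* = 0.0346). The result for *CG11594* was lost when certain single libraries were left out, 7 of the 34 (adjusted *p* up to 0.0963), all of GIM-012, MUN-020 or COR-018, and that for *Sodh-1* with 9 of them (up to 0.0776), all of the same 3 strains. *Sodh-2* spanned 0.71 (adjusted *p* = 0.0929) and *CG3534* 0.38 (adjusted *p* = 0.124), neither of which passed. *CG3534* did pass by DESeq2 (adjusted *p* = 0.00844), with RLE normalization (0.0375), with library size alone (0.017) and with at least 10 counts in every library (0.0458), so its place relative to the threshold rests on the processing. With library size alone, *Sodh-1* (0.051) and *CG11594* (0.0601) did not pass. *CG11594* also did not pass (0.0999) without the libraries that held over 10 CPM of male accessory gland transcripts and without AKA-018, then left with no control library. With 4 of 6 genes against 30.1% of all genes, differences among strains were not rare in the table either.

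Control levels also differed among the strains for all 6 genes, as they did for 81.7% of 12217 genes, so that this count sets them little apart from the table. *CG32444* varied most, with means of 511 CPM in COR-018 and 134 CPM in MUN-008, 3.80-fold apart (adjusted *p* = 8.24e-06). Its control libraries in COR-018 did not overlap those of MUN-020, next at 254 CPM. *CG11594* had 143 CPM in MUN-020, apart from AKA-018, next at 102 CPM, and 49.8 CPM in JUT-008, a 2.87-fold range (adjusted *p* = 0.000211). *Sodh-1* ranged over 2.52-fold between MUN-020, at 139 CPM, and JUT-008, at 55.1 CPM (adjusted *p* = 0.0106). GIM-012, COR-018 and AKA-018, between 98.5 and 105 CPM, overlapped each other.

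*CG6910* ranged over 2.18-fold, with 351 CPM in MUN-020 and 343 CPM in AKA-018, which overlapped, and 161 CPM in MUN-008 (adjusted *p* = 0.000488). *Sodh-2* ranged over 2.17-fold, with 31.3 CPM in COR-018 and 14.4 CPM in MUN-008 (adjusted *p* = 0.00096). *CG3534* had nearly the same level in every strain, between 40.4 CPM in COR-018 and 48.9 CPM in GIM-012, a 1.21-fold range (adjusted *p* = 0.0168). In the log2 range among strains it stood at the 2.85th percentile of the genes tested, where the other 5 stood between the 56.0th and the 78.5th. Without the 5 control libraries that held over 10 CPM of male accessory gland transcripts, a set chosen after seeing the data that includes both AKA-018 control libraries, *CG3534* no longer passed (adjusted *p* = 0.103) and the other 5 genes did.

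Control levels were next compared between tolerant and sensitive strains. None of the 6 genes differed by edgeR's test, at an adjusted or an unadjusted *p*-value of 0.05, and DESeq2 called none either. Over the table, 5.36% of 12217 genes differed by over 1.5-fold, so this count sets the 6 genes little apart. With at least 10 counts in every library, 11 of 9902 genes did. Among the 6, the largest difference was in *CG32444*, with 120 to 254 CPM in tolerant and 109 to 572 CPM in sensitive control libraries. Its log2 difference was -0.59 ± 0.33 (adjusted *p* = 0.562). Without COR-018 it was 0.30, in the other direction. *CG11594* (0.28 ± 0.24), *Sodh-2* (-0.26 ± 0.20), *Sodh-1* (0.25 ± 0.25), *CG6910* (0.12 ± 0.24) and *CG3534* (0.11 ± 0.08) had adjusted *p*-values between 0.722 and 0.983. The standard errors are wide for 5 genes because strains of a class differed as much as the classes. Differences of the size of these errors were not detectable with 3 strains per class. The model held class without strain, so libraries of 1 strain counted as separate replicates, and these errors describe libraries rather than strains. With counts summed per strain, none of the 6 genes was called, and 510 of 12217 genes were.

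The copper response was also compared between the classes. None of the 6 genes passed in the interaction of class and treatment, where 4.13% of 12511 genes did. The choice of the genes used a rise in both classes, so this count is not independent of it. The model held a single copper response per class, so libraries of the same strain counted as separate replicates. The errors below describe libraries rather than strains. With counts summed per strain and treatment, which makes the strain the unit, 0 of 12511 genes passed. *CG32444* came nearest, with a response larger in tolerant than in sensitive strains by 0.54 ± 0.24 on the log2 scale, the only one of the 6 below 0.05 before adjustment, but not after it (adjusted *p* = 0.194). It passed when MUN-020 was left out, at 0.80 (adjusted *p* = 0.0398), and lay at 0.25 (adjusted *p* = 0.802) without GIM-012, the lowest of the fits that left out 1 strain. *Sodh-1* differed by 0.32 ± 0.26 and *CG11594* by 0.19 ± 0.18, and *CG6910*, *CG3534* and *Sodh-2* by -0.08 ± 0.21, -0.02 ± 0.09 and -0.02 ± 0.16 (adjusted *p* between 0.477 and 0.970). The interval of the difference was narrowest for *CG3534*.

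Other genes of the same pathways were taken from 7 lists of 45 genes, of which 39 are in the table. The lists were chosen with earlier results of these data known, so the shares below are a description and not a test of the pathways. In tolerant strains 5 of 35 genes tested rose with copper (1.02% of all genes) and 0 fell (0.509%). In sensitive strains 3 of 39 rose (1.81% of all genes) and 2 fell (5.94%). The median log2 fold change of the listed genes was 0.16 in tolerant and 0.013 in sensitive strains, against -0.0037 and -0.019 over all genes tested. DEGs are genes past 1.5-fold whose adjusted *p*-value is under 0.05.

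Of 8 genes listed as aldose reductases, 7 were tested in tolerant and 8 in sensitive strains, and *CG12766* was the only DEG. Whether each of them makes sorbitol was not tested. It averaged 15.5 ± 5.19 CPM in tolerant copper and 7.19 ± 2.80 CPM in tolerant control libraries, and 16.9 ± 7.12 CPM in sensitive copper and 6.92 ± 4.28 CPM in sensitive control libraries. The log2 fold changes were 1.09 ± 0.21 (adjusted *p* = 0.00595) and 1.27 ± 0.15 (adjusted *p* = 3.01e-05). In the pentose phosphate pathway, *Taldo*, the transaldolase, rose in both classes, by 0.85 ± 0.15 in tolerant (adjusted *p* = 0.00276) and 0.59 ± 0.08 in sensitive strains (adjusted *p* = 7.56e-05). The sensitive value lay just above the fold threshold and fell under it, to 0.54 at the lowest, when any of 8 of the 17 libraries was left out. *Pgls*, a 6-phosphogluconolactonase, rose in tolerant strains by 0.60 ± 0.15 (adjusted *p* = 0.037), a call lost when any of 9 of the 17 was left out, and had a log2 fold change of 0.34 ± 0.07 in sensitive strains, below the fold threshold.

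In the galactose pathway, *Galk*, the galactokinase, averaged 321 ± 46.1 CPM in tolerant copper and 183 ± 34.7 CPM in tolerant control libraries, and 316 ± 77.2 CPM in sensitive copper and 168 ± 53.2 CPM in sensitive control libraries. It rose by 0.81 ± 0.11 in tolerant (adjusted *p* = 0.000488) and 0.92 ± 0.08 in sensitive strains (adjusted *p* = 2.06e-06). *Pgm1*, the phosphoglucomutase, rose in tolerant strains by 0.72 ± 0.14 (adjusted *p* = 0.00754), and was at 0.50 ± 0.07 in sensitive strains, below the fold threshold. Leaving out MUN-008 ended the tolerant calls of *CG12766*, *Taldo*, *Pgls* and *Pgm1* (adjusted *p* = 0.210, 0.057, 0.289 and 0.107), and leaving out GIM-012 those of *Pgls* and *Pgm1*, at 0.34 and 0.44. The interaction passed for none of these 5 genes, so their response was not shown to differ between the classes. No fructose-step gene (0 of 2 in tolerant, 0 of 3 in sensitive strains) and none of the 4 other FGGY-family kinases was a DEG in either class.

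The 2 genes that fell did so in sensitive strains. *Had2*, from the list of glucuronate and xylulose steps, averaged 2.16 ± 1.50 CPM in sensitive copper and 2.78 ± 1.47 CPM in sensitive control libraries. Its log2 fold change was 0.45 ± 0.17 in tolerant strains (adjusted *p* = 0.229) and -0.70 ± 0.22 in sensitive ones (adjusted *p* = 0.0305). *CG17027*, an inositol monophosphatase-like gene, was at 0.03 ± 0.14 in tolerant (adjusted *p* = 0.972) and -0.60 ± 0.11 in sensitive strains (adjusted *p* = 0.00105) on the log2 scale. Their interactions were 1.15 ± 0.28 (adjusted *p* = 0.0174) and 0.65 ± 0.19 (adjusted *p* = 0.0496). The call in sensitive strains was lost for *Had2* when any of 9 of the 17 libraries was left out and for *CG17027* with any of 6, and for both without COR-018 or JUT-008. Both interactions were lost without GIM-012, COR-018 or JUT-008 (adjusted *p* up to 0.201 for *Had2* and 0.430 for *CG17027*) and with counts summed per strain and treatment, which makes the strain the unit (adjusted *p* = 0.891 for each), and that of *CG17027* when any of 21 of the 34 libraries was left out.

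**Figure D4:**
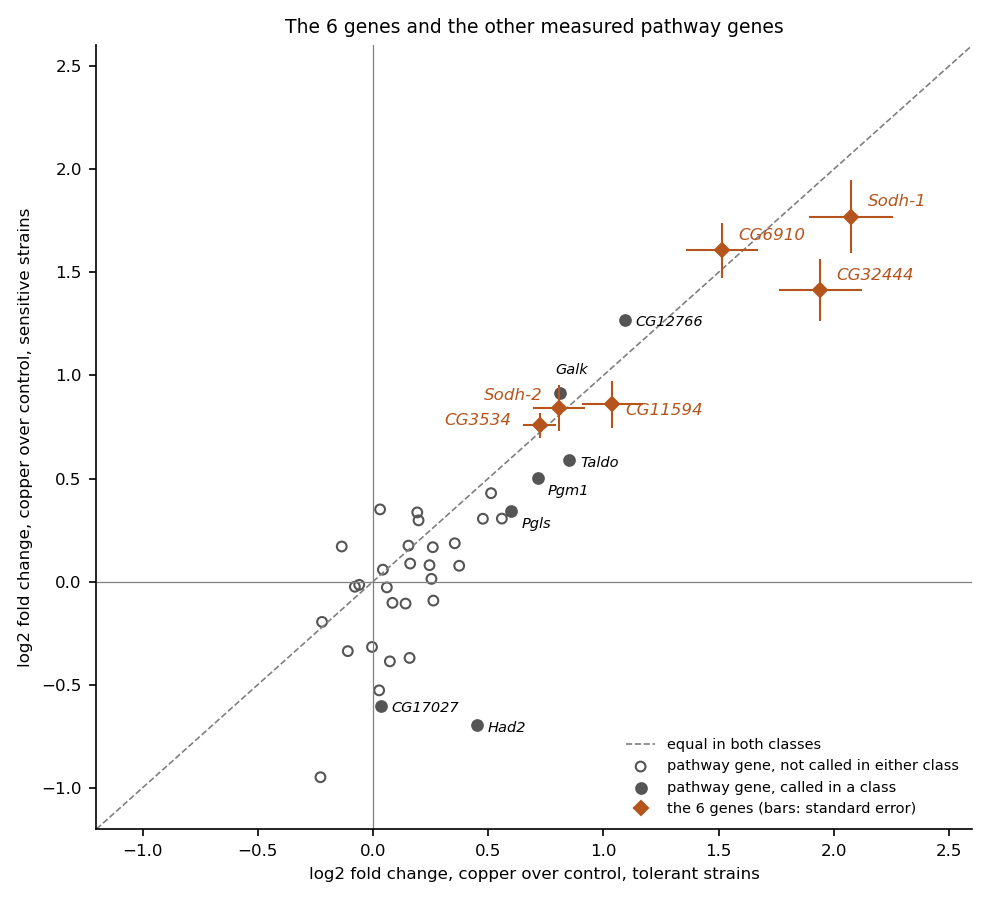
The log2 fold change of copper over control in tolerant strains (x axis) is plotted against that in sensitive strains (y axis) for the 6 genes (brown diamonds, bars for the standard error) and the 35 other pathway genes tested in both classes (circles, filled where called in a class), with a dashed line where both are equal. The 6 genes lie between 0.72 and 2.08 on the x axis and between 0.76 and 1.77 on the y axis, and *Had2* and *CG17027* lie below 0 in sensitive strains, at -0.70 and -0.60.

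Over the 34 libraries, which share strains and treatments, log2 CPM of the 6 genes correlated in pairs with Pearson's *r* between 0.34 (*Sodh-2* with *CG11594*) and 0.92 (*Sodh-1* with *CG6910*), with a median of 0.74 over the 15 pairs. After the mean of each strain and treatment was subtracted, *r* lay between 0.22 (*CG6910* with *CG3534*) and 0.88 (*CG11594* with *CG32444*), with a median of 0.70. Over the 16 control libraries alone it lay between -0.32 (*CG3534* with *CG32444*) and 0.84, with a median of 0.39. Genes do not give independent values within a library, and these correlations are given as a description.

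Among 12505 other genes, those most like *Sodh-1* over the 34 libraries were *Got1*, a glutamate oxaloacetate transaminase (*r* = 0.94, and 0.85 after subtraction of the means), and *fbp*, the fructose 1,6-bisphosphatase (0.94 and 0.78), followed by the metallothionein *MtnE* (0.93 and 0.51). *Got1* was also the most like *CG6910* (0.94 and 0.54), followed by *MtnD* (0.94 and 0.43) and *MtnE* (0.92 and 0.54), and it was second for *CG32444* (0.87 and 0.87), between *UK114* (0.87 and 0.60) and *MtnD* (0.87 and 0.36). The gene most like *CG11594* was *Pgm1* (0.95 and 0.92), followed by *hgo*, the homogentisate dioxygenase (0.94 and 0.71), and *Argl*, the argininosuccinate lyase (0.94 and 0.89). For *CG3534* these were FBgn0028519 (0.92 and 0.51), *MtnB* (0.88 and -0.11) and *MtnE* (0.87 and 0.28), and for *Sodh-2* they were *CG43071* (0.86 and 0.34), *CG9547* (0.84 and 0.48) and *CG3376* (0.84 and 0.094). The likeness of *CG3534* to *MtnB* and of *Sodh-2* to *CG3376* was thus one of strain and treatment means and was not present among replicates, whereas that of *CG11594* to *Pgm1* was present in both.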

How the data were processed

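The authors used Trim Galore 0.5.0 and cutadapt 1.18 for trimming, STAR 2.6 for alignment to dm6 and featureCounts 1.6.2 for counting per gene, by strand and without reads that mapped to several places. The deposited values are raw counts per gene, and the table's label mentions that males were removed, to an extent not given in the sources used here. Every column was matched to a library by its label. Symbols, positions and exon lengths were taken from the reference annotation (Ensembl, dm6).

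Counts were normalized by TMM in edgeR 4.0.16 (R 4.3.3), genes were kept with filterByExpr on strain and treatment, and tests were quasi-likelihood F-tests with Benjamini-Hochberg adjustment over all genes tested, at an adjusted *p*-value of 0.05 and, for copper within a class and for control levels between classes, a fold change of 1.5. Models held strain and treatment within a class, class and strain with treatment over all libraries, or class or strain in control libraries. Errors of log2 fold changes are standard errors. CPM are TMM-normalized, and for correlations log2 values were formed with a prior count of 0.5. The members and the gene lists were chosen with earlier results of these data known. A gene was taken out of the pathway lists, and so out of their counts, and is not reported here. The genes named are the 6 members, every listed pathway gene called in both classes in the same direction, up to 3 more per list among those called in either class, and the 3 genes most like each member. Marker lists for Malpighian tubule, ovarian germline and haemocytes were summed in the same way as those in the text. In tolerant strains their medians were 342, 1201 and 423 CPM with copper and 370, 1683 and 347 CPM in controls. In sensitive strains they were 315, 1094 and 135 CPM with copper and 344, 1277 and 261 CPM in controls.

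Replicates differed by more than counting error (chi-squared per degree of freedom 8.70 to 274 over 32 pairs), so replicate spread rather than depth sets the precision. Simulated data with 200 changed genes were used to test the models. Apart from the set changes, each gene had the same mean in every strain, and all genes had the same spread among replicates. Recovery of 4-fold changes was complete in all 6 comparisons. For differences of a single strain in the copper response, however, only 49% of 2-fold changes were recovered. The real strains differed, so this recovery does not give the power of the class comparisons. Alternatives were DESeq2 1.42.0, RLE normalization, library size alone, other filters and thresholds, a replicate block, counts summed per strain and treatment, and leaving out each library or strain.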

Additional observations from a re-analysis of the deposited data

Results flagged for a closer look

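The copper response differed among the strains by a test of the difference itself for 4 of the 6 genes. The log2 fold changes of the strains spanned 1.52 for *CG32444*, 1.29 for *CG6910*, 1.21 for *Sodh-1* and 0.98 for *CG11594*. The calls of *Sodh-1* and *CG11594* were lost with library size alone (adjusted *p* = 0.051 and 0.0601) and when certain single libraries were left out. For 2 other pathway genes the response differed between the classes, by 1.15 on the log2 scale for *Had2* and by 0.65 for *CG17027*, both higher in tolerant than in sensitive strains. Neither passed with counts summed per strain and treatment (adjusted *p* = 0.891 for each) or without GIM-012, COR-018 or JUT-008, and *CG17027*, at an adjusted *p* of 0.0496, did not pass when any of 21 of the 34 libraries was left out.

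A library far from the others was searched for in 24 groups of class, treatment and gene. The cut-off flags about 1 in 20 groups of independent values from 1 population. The groups here mix strains, and the genes share libraries, so that rate does not hold for them. In the 24 groups 1 library was found. It was MUN-008 copper replicate 1 for *CG3534*, at 95.7 CPM, whose gap to the next tolerant copper library was 0.523 of the range of the group.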

How the results depend on the processing

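The log2 fold changes of the 6 genes with copper, 318 values over all fits under the alternatives, stayed above 0. Of these, 5 moved by over 1 pooled SD of replicates. The genes were chosen by this contrast, so the sign is given as a description. A setting chosen after seeing the data left out the libraries over 10 CPM of male accessory gland transcripts and, since its control libraries were among them, all of AKA-018. It left 5 of 17 libraries in sensitive strains, each from COR-018 or JUT-008, 22 of 34 over both treatments and 11 of 16 in controls, so that counts under it rest on fewer libraries. In sensitive strains the values of the 6 genes were then 1.79 for *Sodh-1*, 1.08 for *Sodh-2*, 1.98 for *CG6910*, 0.61 for *CG3534*, 0.88 for *CG11594* and 1.36 for *CG32444*. The precision is limited by 3 strains per class, not by read depth.

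The counts over all genes moved more. In tolerant strains the 177 DEGs became 320 with no fold threshold, 34 at a log2 fold change over 1.5, and 85 to 259 when a library or strain was left out. In sensitive strains the 954 became 3111, 253, and 497 to 1177, and 66 in that reduced set. The 517 interaction genes (427 higher and 90 lower in the tolerant response, 388 and 194 with library size alone) became 1007 by DESeq2, 22 to 1395 with a library or strain left out, 48 in that reduced set and 0 with counts summed per strain and treatment, where 448 had an unadjusted edgeR *p*-value below 0.05. The number of members among them was 0, or 1 (*CG32444*) without MUN-020, the range being 0 to 1. The 655 genes that differed between classes in controls became 11 with at least 10 counts in every library, 107 in that reduced set and 6 to 1093 with a library or strain left out. The 3772 genes whose response differed among strains became 2059 in that reduced set and 2130 to 4298 with a library left out. The cause of these shifts was not tested.

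Replicate numbers did not pair the libraries, since 2 of 15 same-numbered pairs correlated above 0.1 (median -0.102). With a replicate block, the 655 became 341, and the members whose response differed among strains became 2 in place of 4, *CG6910* and *CG32444*, with *Sodh-1* at an adjusted *p* of 0.0777 and *CG11594* at 0.0732. With a library left out that number was 2 to 5, and it was 2 without GIM-012 copper replicate 1, GIM-012 control replicate 1 or 4, MUN-020 control replicate 1, COR-018 copper replicate 3 or COR-018 control replicate 1.

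Some values changed sign when a library or strain was left out. In the interaction the ranges were -0.19 to 0.11 for *Sodh-2*, -0.31 to 0.18 for *CG6910*, -0.14 to 0.062 for *CG3534* (0.11 in that reduced set), -0.043 to 0.34 for *CG11594*, -0.57 to 0.25 for *CG12766*, -0.0097 to 0.47 for *Pgls*, -0.0094 to 0.47 for *Taldo*, -0.33 to 0.060 for *Galk* and -0.076 to 0.42 for *Pgm1*. For control levels between classes they were -0.0037 to 0.51 for *Sodh-1*, -0.52 to 0.039 for *Sodh-2*, -0.10 to 0.42 for *CG6910*, -0.050 to 0.46 for *CG11594* and -0.96 to 0.30 for *CG32444*. The response of *CG17027* in tolerant strains was -0.25 to 0.22. The correlation of *MtnB* with *CG3534* turned to -0.11 after the means of strain and treatment were subtracted.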

Other observations

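Among the 10 groups of 3 libraries of 1 strain and treatment, there were 3 in which the same library was the highest for all 6 genes, namely GIM-012 copper replicate 1, MUN-008 copper replicate 1 and JUT-008 copper replicate 3, and 1, COR-018 copper replicate 3, in which the same library was the lowest for all 6. These counts have no test, and the genes share the libraries.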
